A study of Mus musculus with 9 samples.

Results

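The T cell receptor complex and its proximal signalling genes were followed in RNA from CD8+ T cells and, as background, from B16F10 melanoma cells. The 9 genes were chosen by symbol as textbook parts of this machinery and found by Ensembl ID among the 54838 genes of the deposited count files. They were the CD3 chain genes Cd3d, Cd3e, Cd3g and Cd247, the coreceptor genes Cd8a and Cd8b1, the kinase genes Lck and Zap70, and the adaptor gene Lat. The 9 libraries fell into 4 groups: T cell HOCl (1 library), T cell untreated (2), B16F10 HOCl (3) and B16F10 untreated (3). Every culture stood in medium for 5 h, with hypochlorous acid (HOCl, the oxidant that neutrophil myeloperoxidase makes) at 600 µM in the HOCl groups and with none in the untreated groups. The T cells came from spleens of adult C57BL/6 mice by a CD8a+ selection kit, without a stated stimulus, and the labels do not say how many mice went into a library. B16F10, a melanoma line of C57BL/6 origin, had grown on plates for 4 days. No genetic change or other agent was stated for any group, and the labels name no separate culture or animal behind each replicate. The p-values therefore cover library-to-library spread alone, and that spread may be technical.

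The T cell receptor itself has no signalling tail. Its alpha and beta chains travel to the surface with the CD3 delta, epsilon and gamma chains and the zeta chain that Cd247 encodes, whose tails carry the tyrosine motifs called ITAMs. When the receptor meets a peptide on MHC class I, the CD8 coreceptor, a dimer of the Cd8a and Cd8b1 products, brings the kinase LCK to these motifs. LCK phosphorylates them, ZAP70 docks on the phosphorylated motifs and is activated, and ZAP70 phosphorylates LAT, a membrane scaffold from which the calcium, Ras and NF-kB arms start.

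Library totals were 12.8 M counts in T cell HOCl, 49.9 and 52.1 M in T cell untreated, and 45.9 to 61.3 M in B16F10. Levels below are counts per M of a library's total (CPM), and a gene at 0 could stand at up to 3 counts, which is 0.234 CPM in the T cell HOCl library and 0.0489 to 0.0654 CPM in the others. The T cell HOCl library stood apart. Mitochondrial genes took 37.4% of its counts, against 1.55% and 2.11% in untreated T cells, and 44225 genes had a count in it, against 22855 to 25907 in the other 8 libraries. Genes specific to B16F10 (521 genes, at least 100-fold lower in untreated T cells) had a median of 40.7% of their untreated B16F10 level in it, against 0.4% and 0.155% in untreated T cells. The 30484 genes that stayed under 0.1 CPM in every other library had a median of 0.556 CPM per kilobase of exon there. B16F10 HOCl replicate 3 stood apart in another way. A set of 347 genes outside the list followed here is called T-only below. Each had at least 10 CPM in both untreated T cell libraries and was at least 100-fold lower in every untreated B16F10 library. This rule is not limited to T cell genes, since Ighm, a B cell marker, meets it. Ighm had 1242 and 2332 CPM in untreated T cells, against 0.685, 0.441 and 0.458 CPM in untreated B16F10. As a share of the untreated T cell mean, the median T-only level was 0.727% in B16F10 HOCl replicate 3. It was 0.0651% to 0.101% in the other 5 B16F10 libraries. Results that rest on either library are given with these values or without the library.

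The promoters of the CD3 chain genes are shown because these genes sit together and gave the most unequal values of the 9. Cd3g and Cd3d lie head to head on chromosome 9 of mouse GRCm38 (mm10), with starts 1355 bases apart in GENCODE M21, and Cd3e starts 27841 bases from Cd3d. Cd247 lies on chromosome 1. The windows below run from 250 bases before to 50 bases after the RefSeq start (GRCm38.p6), on the gene's strand, at chr9:44981536-44981835 for Cd3d (plus strand), chr9:44980382-44980681 for Cd3g (minus), chr9:45009562-45009861 for Cd3e (minus) and chr1:165788431-165788730 for Cd247 (plus). Capitals mark the ETS-type letters AGGAAG or their complement CTTCCT, or the E-box letters CAGCTG.
Cd3d: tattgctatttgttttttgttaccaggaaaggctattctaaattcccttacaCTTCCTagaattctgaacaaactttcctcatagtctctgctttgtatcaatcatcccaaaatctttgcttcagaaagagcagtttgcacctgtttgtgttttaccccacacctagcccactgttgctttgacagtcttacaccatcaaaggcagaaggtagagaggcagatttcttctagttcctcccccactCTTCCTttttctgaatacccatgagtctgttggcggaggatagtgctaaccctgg
Cd3g: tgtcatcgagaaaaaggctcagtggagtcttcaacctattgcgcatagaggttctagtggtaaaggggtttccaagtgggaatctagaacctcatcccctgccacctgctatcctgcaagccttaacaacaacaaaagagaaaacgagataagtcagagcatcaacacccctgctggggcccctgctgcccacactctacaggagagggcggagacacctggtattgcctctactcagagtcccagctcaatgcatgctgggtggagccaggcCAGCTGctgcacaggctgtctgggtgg
Cd3e: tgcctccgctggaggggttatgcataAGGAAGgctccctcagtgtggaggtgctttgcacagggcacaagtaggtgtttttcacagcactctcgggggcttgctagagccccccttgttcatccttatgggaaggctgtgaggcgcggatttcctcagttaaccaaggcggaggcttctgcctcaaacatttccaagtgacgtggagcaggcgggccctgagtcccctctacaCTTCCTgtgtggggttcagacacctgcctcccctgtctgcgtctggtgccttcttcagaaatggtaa
Cd247: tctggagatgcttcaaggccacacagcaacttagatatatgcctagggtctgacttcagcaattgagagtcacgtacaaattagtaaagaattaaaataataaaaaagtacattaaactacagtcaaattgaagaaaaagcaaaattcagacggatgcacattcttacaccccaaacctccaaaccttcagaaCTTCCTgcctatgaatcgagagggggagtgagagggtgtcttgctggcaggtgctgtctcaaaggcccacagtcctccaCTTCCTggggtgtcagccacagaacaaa
None of these 4 windows held the TATA-box letters TATAAA or the RUNX-type letters TGTGGT on either strand. Over the 11 windows given for 8 of the 9 genes (not Cd8b1), the ETS-type letters were in 8 windows, against 35.4% of all 32851 mouse windows of this length. The RUNX-type letters were in 3 of the 11, at Lck, Zap70 and Lat, against 16.8% of all windows. The E-box letters were in 2, at Cd3g and Cd8a, against 16.3%. TATAAA was in 0 of the 11, against 13.6%. These are letter matches, not measured binding.

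In untreated T cells the 9 genes stood between 198 CPM (Zap70) and 709 CPM (Lck). CPM per kilobase of exon (all annotated exons merged), which allows genes to be compared, was highest for Cd8b1, at 295 ± 33.4 (SD, n = 2 libraries, as for the values that follow). Cd3d followed at 235 ± 102, Lck at 216 ± 37.1, Lat at 153 ± 14.8 and Cd8a at 112 ± 18.1. The lower end held Cd3g at 76.7 ± 11.9, Zap70 at 73.2 ± 10.0, Cd3e at 63.4 ± 19.5 and Cd247 at 42.6 ± 7.06. The ranges of the 2 libraries overlapped between Cd8b1 and Cd3d, between Cd3d and Lck, between Cd3g and Zap70, and between Zap70 and Cd3e, so the order of these neighbours was not fixed by the libraries. In the T cell HOCl library the order per kilobase was Lck 57.9, Cd8b1 46.3, Cd3d 38.9, Lat 31.7, Cd8a 19.0, Cd3g 17.9, Zap70 13.9, Cd3e 12.1 and Cd247 2.94 CPM per kilobase. Cd247 was thus the lowest of the 9 in both groups, and in the HOCl library it was the nearest of the 9 to the 0.556 CPM per kilobase of the genes that were silent elsewhere.

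**Figure D1:**
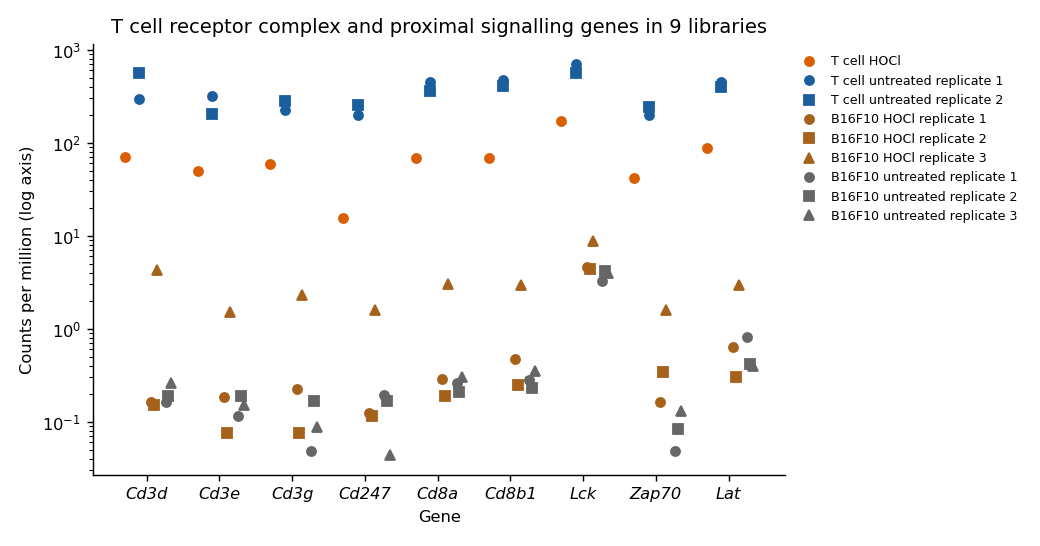
CPM (log axis) of the 9 genes in each of the 9 libraries; each point is 1 library, colours are groups and shapes are replicates. The T cell HOCl library lies between the untreated T cell libraries and every B16F10 library for all 9 genes, and B16F10 HOCl replicate 3 is the highest of the B16F10 libraries for each gene.

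Cd3d, whose product pairs with CD3 epsilon in the receptor complex, had 70.5 CPM in the T cell HOCl library, against 295 and 557 CPM in untreated replicates 1 and 2. Cd3e, whose product pairs with both CD3 delta and CD3 gamma, had 49.3 CPM in T cell HOCl, against 315 and 202 CPM in untreated T cells. The untreated libraries disagreed on these 2 genes and in opposite directions. Cd3g, the gamma chain gene, had 58.4 CPM in T cell HOCl, against 223 and 278 CPM in untreated T cells. Cd247, whose zeta chain carries several ITAMs and limits how much receptor reaches the surface, had 15.6 CPM in T cell HOCl, against 200.4 and 254 CPM in untreated T cells. The HOCl library was below both untreated libraries for all 4 chains, and by far the most for Cd247. Annotated exons of other genes share 60.3% of the 5329 exonic bases of Cd247, mostly those of Pou2f1 on the opposite strand, and the strand setting of the counting is not given in the sources used here. Pou2f1 itself, a transcription factor gene, had 24.0 CPM in T cell HOCl, against 107 and 44.3 CPM in untreated T cells. Reads of the pair could not be told apart.

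Cd8a and Cd8b1, the coreceptor genes, stayed close to each other in every T cell library. They start 50639 bases apart on chromosome 6, Cd8a at chr6:71373427-71379173 and Cd8b1 at chr6:71322788-71337494, both on the plus strand. Cd8a had 69.2 CPM in T cell HOCl, against 452 and 359 CPM in untreated T cells. Cd8b1 had 68.7 CPM in T cell HOCl, against 472 and 402 CPM in untreated T cells. Cd8a marks the cells that the kit selects, so its level in untreated T cells checks the label and is no finding. Cd4, the coreceptor gene of helper T cells, had 7.08 CPM in T cell HOCl, against 0.0401 and 0.192 CPM in untreated T cells. Genes silent in every other library also had a median of 0.556 CPM per kilobase of exon in T cell HOCl.

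The kinase genes lie at chr4:129548344-129573641 (Lck, minus strand) and chr1:36761798-36782818 (Zap70, plus), and Lat lies at chr7:126363824-126369570 (minus). Lck, whose kinase acts first, had 169.5 CPM in T cell HOCl, against 709 and 555 CPM in untreated T cells. Zap70, whose kinase docks on the phosphorylated chains, had 41.7 CPM in T cell HOCl, against 198 and 240.4 CPM in untreated T cells. Lat, the scaffold gene, had 87.8 CPM in T cell HOCl, against 453 and 395 CPM in untreated T cells. As for the receptor chains, the HOCl library lay below both untreated libraries for each of these genes.

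Set against the untreated mean, the T cell HOCl library held 6.89% of the Cd247 level and 15.7% to 26.8% of the level of the other 8 genes. The share was 16.5% for Cd3d, 19.1% for Cd3e, 23.3% for Cd3g, 17.1% for Cd8a, 15.7% for Cd8b1, 26.8% for Lck, 19.0% for Zap70 and 20.7% for Lat. With 1 library in the HOCl group there is no test, and no spread between HOCl replicates is known. Exact Poisson intervals, which cover counting error only, put Cd247 at 13.6 to 17.96 CPM and Lck at 162 to 177 CPM in that library. All 9 genes were at least 2-fold below both untreated libraries, as were 30.5% of the 7751 genes with at least 10 CPM in both, while 3.37% were at least 2-fold above both. Among the 347 T-only genes, 282 (81.3%) were at least 2-fold below both. The median share was 19.0% for the 9 genes, 17.1% for the T-only genes (quartiles 11.0% and 30.6%) and 59.0% for all 7751 genes. In bulk RNA, fewer T cells and less RNA per T cell cannot be told apart. The total of this library also held 37.4% mitochondrial counts. Genes specific to B16F10 stood in it at a median of 40.7% of their untreated B16F10 level. The part of these counts in the shares above was not tested.

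The ratio depended on the scale. All 9 genes meet the T-only rule themselves, so the T-only total sets them against genes picked by the same rule. It shows where they stood among such genes and cannot decide whether their level per cell fell. When counts were divided by the sum over T-only genes in place of the library total, the T cell HOCl level was 104% to 178% of the untreated level for the 8 genes other than Cd247, and 45.2% for Cd247. Cd247 was at percentile 7.2 among the T-only genes in its share of the untreated level, and at percentile 0.4 among all 7751 genes. Leaving mitochondrial genes out of the total moved the median log2 ratio of the 9 genes to -1.74, against -2.39 with them, and all 9 remained at least 2-fold below both untreated libraries. In the authors' deposited table for T cells, whose 2 groups are not named by treatment, the log2 fold changes of the 9 genes were all negative, from -2.68 for Lck to -4.64 for Cd247, with adjusted p-values of 1.58e-05 for Lck and 2.04e-12 for Cd247.

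**Figure D2:**
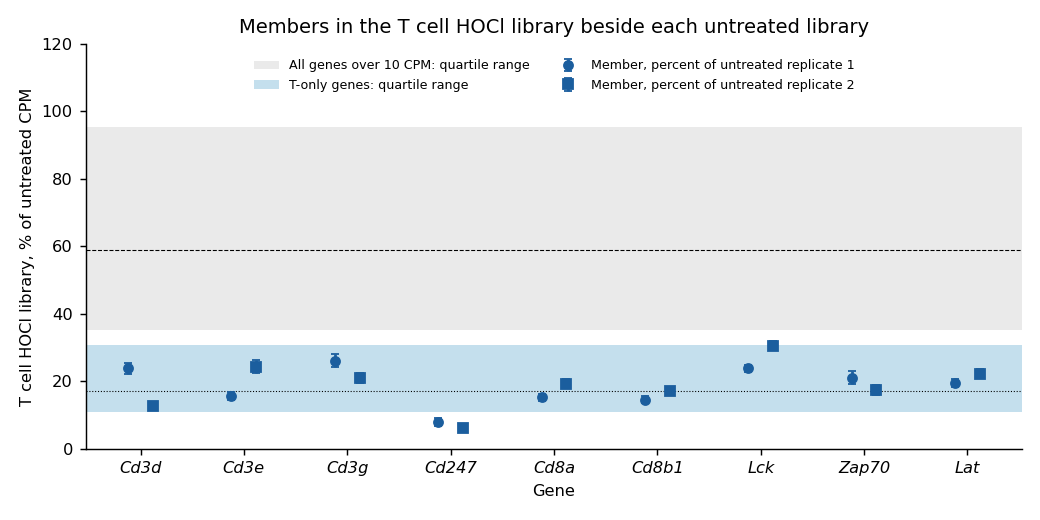
The CPM of each gene in the T cell HOCl library as a percent of its CPM in untreated replicate 1 (circles) and replicate 2 (squares), with exact 95% counting intervals; bands are quartile ranges of the share of the untreated mean over all genes with at least 10 CPM in both untreated libraries (grey, median dashed at 59.0%) and over T-only genes (blue, median dotted at 17.1%). Only Cd247 lies below the T-only band, at 7.81% and 6.17%.

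The 2 untreated T cell libraries differed from each other in all 9 genes by more than counting error, which sets the spread behind every T cell mean. Cd3d was 1.89 times as high in replicate 2 as in replicate 1 (exact 95% interval 1.85 to 1.92), and Cd3e was 0.643 times as high (0.627 to 0.659). Cd3g, Cd247 and Zap70 were 1.25, 1.27 and 1.21 times as high in replicate 2, while Cd8a, Cd8b1, Lck and Lat were 0.794, 0.852, 0.783 and 0.872 times as high. So 1 of the 9 genes was at least 1.5-fold higher and 1 at least 1.5-fold lower in replicate 2, beside 13.5% and 26.1% of the 7751 genes. The source label of untreated replicate 2 has another prefix than those of the other 8 libraries, and what the prefix means is not given. With library sizes scaled by TMM (a trimmed mean over genes) 2 of the 9 genes were at least 1.5-fold higher in replicate 2, Cd3d and Cd247 (1.16 and 0.59 on the log2 scale), and 0 were lower, Cd3e being at -0.39. All genes together then had 1823 higher and 1233 lower, against 1049 and 2025 on library totals, and the ratios of Cd8b1 and Lat, at 0.016 and 0.050 on the log2 scale, changed sign.

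**Figure D3:**
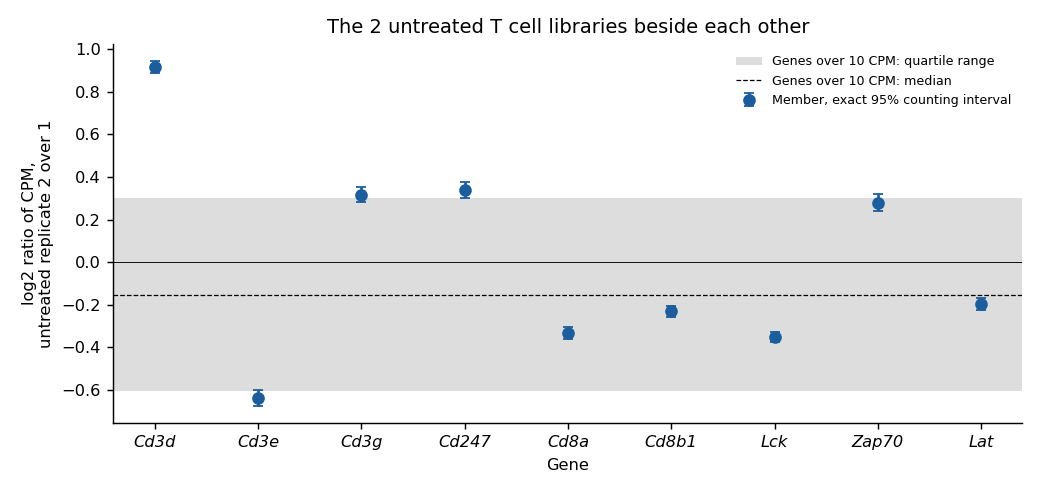
The log2 ratio of CPM in untreated T cell replicate 2 over replicate 1 for each gene, with exact 95% counting intervals; the grey band is the quartile range of genes with at least 10 CPM in both libraries, from -0.61 to 0.30, and the dashed line their median of -0.15. Cd3d at 0.92 and Cd3e at -0.64 lie on opposite sides of the band, with Cd3g at 0.32 and Cd247 at 0.34 just above it.

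Ratios between genes of the same library do not depend on its depth or on the total used as denominator. Cd3d counts per Cd3e count were 1.43 (exact 95% interval 1.29 to 1.58) in T cell HOCl, against 0.938 (0.917 to 0.959) and 2.75 (2.69 to 2.81) in untreated replicates 1 and 2. The HOCl ratio lay between those of the untreated libraries, and so did the Cd3g to Cd3e ratio, at 1.18 in T cell HOCl against 0.709 and 1.37 in untreated T cells. The Cd247 to Cd3e ratio did not: it was 0.317 (0.269 to 0.372) in T cell HOCl, against 0.636 and 1.25 in untreated T cells. Cd8a counts per Cd8b1 count were 1.01 (0.916 to 1.11) in T cell HOCl, against 0.958 and 0.893 in untreated T cells, the steadiest of these ratios. Lck counts per Zap70 count were 4.06 in T cell HOCl, against 3.58 and 2.31 in untreated T cells, so the HOCl library lay above both. With 2 untreated libraries whose ratios differed up to 2.75 against 0.938, the spread of such ratios between T cell cultures is poorly known.

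**Figure D4:**
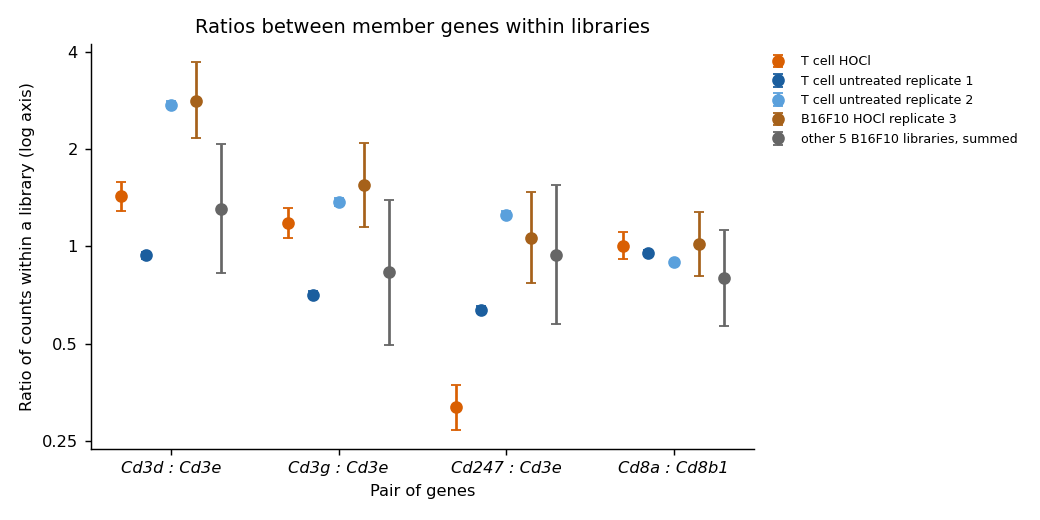
Ratios of raw counts between pairs of genes within libraries (log axis), with exact 95% counting intervals. The Cd247 to Cd3e ratio of the T cell HOCl library, at 0.317, is below those of both untreated T cell libraries, at 0.636 and 1.25, while its Cd3d to Cd3e ratio lies between theirs; B16F10 HOCl replicate 3 lies near untreated T cell replicate 2 in the 3 CD3 ratios.

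Against untreated B16F10, all 9 genes were higher in untreated T cells, by edgeR's quasi-likelihood test on counts with Benjamini-Hochberg adjustment over all genes, in which 71.1% of 18352 genes were called, 35.4% higher and 35.8% lower. These are textbook T cell genes, so the direction is no finding. The log2 difference was smallest for Lck, at 7.62 ± 0.21 (SE), and largest for Zap70, at 11.55 ± 0.34, with n = 2 T cell and 3 B16F10 libraries. It was 11.30 for Cd3d, 10.97 for Cd3e, 11.54 for Cd3g, 10.89 for Cd247, 10.84 for Cd8a, 10.81 for Cd8b1 and 9.82 for Lat. The edgeR adjusted p-values ran from 8.33e-06 to 1.51e-05, and every alternative fit kept all 9 past the threshold of 0.05. Lck stood out by its B16F10 level. It had 4.59, 4.34 and 8.76 CPM in B16F10 HOCl, against 3.26, 4.2 and 3.94 CPM in B16F10 untreated. In the 5 B16F10 libraries other than HOCl replicate 3, its median was 0.664% of the untreated T cell mean, against 0.0348% to 0.099% for each of the other 8 genes.

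In B16F10 the HOCl group differed from the untreated one in these genes mainly through 1 library. Their summed level was 6.84, 5.84 and 29.0 CPM in B16F10 HOCl replicates 1, 2 and 3, against 5.18, 5.86 and 5.67 CPM in B16F10 untreated. Cd3d is given as an example. In Lck and Zap70, unlike Cd3d, HOCl replicates 1 and 2 also lay above every untreated B16F10 library. Cd3d had 0.163, 0.152 and 4.25 CPM in B16F10 HOCl, against 0.163, 0.189 and 0.261 CPM in B16F10 untreated. The other 8 genes had 1.5 to 8.76 CPM in HOCl replicate 3, each above its value in every other B16F10 library. Among the 8 genes other than Lck, replicate 3 held 0.63% to 0.846% of the level in untreated T cell replicate 2 and 0.476% to 1.44% of that in replicate 1. The SD of the log2 ratio over these 8 genes was 0.14 against untreated T cell replicate 2 and 0.49 against replicate 1. The Cd3d to Cd3e count ratio of B16F10 HOCl replicate 3 was 2.83 (2.17 to 3.72), beside 2.75 in untreated T cell replicate 2 and 1.31 (0.828 to 2.07) in the other 5 B16F10 libraries summed. The source of these counts was not tested.

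The same edgeR test within B16F10 (28.3% of 16082 genes called, 14.7% higher and 13.5% lower) kept only Cd8a, Cd8b1, Lck and Lat past its filter on low counts, and called 0 of these 4. Of the 4, Lck and Cd8b1 had an unadjusted edgeR p under 0.05. The log2 differences by edgeR, HOCl minus untreated, were 0.61 ± 0.25 for Lck (SE, n = 3 each, adjusted p = 0.0908), 2.07 ± 0.86 for Cd8b1 (adjusted p = 0.108), 2.14 ± 1.03 for Cd8a (adjusted p = 0.172) and 1.20 ± 0.75 for Lat (adjusted p = 0.275). Without HOCl replicate 3 they were 0.21, 0.30, -0.15 and -0.26 by edgeR, with adjusted p-values of 0.397, 0.736, 0.887 and 0.758. DESeq2 on all 6 libraries called Lck (adjusted p = 0.0321) and Cd8b1 (adjusted p = 0.00833). Zap70, which did not pass the filter, had 0.163, 0.342 and 1.597 CPM in B16F10 HOCl, against 0.0489, 0.084 and 0.131 CPM in B16F10 untreated. Its 3 HOCl libraries lay above its 3 untreated ones, as did those of Lck, and the same held for 25.2% of the 16082 genes tested. In the authors' deposited table for B16F10, whose groups are likewise not named by treatment, the log2 fold change was 0.46 for Zap70 (adjusted p = 0.00567), 0.44 for Cd8b1 (adjusted p = 0.0146), 0.43 for Lck (adjusted p = 0.0335), 0.28 for Cd3e (adjusted p = 0.094) and 0.14 for Lat (adjusted p = 0.382), with no adjusted p for the other 4.

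The other genes of the pathway were also mostly lower in the T cell HOCl library, again without a test. The shares at the same limit were 30.5% of all genes over 10 CPM and 81.3% of T-only genes, and with the T-only total as denominator 22 of the 7751 genes were lower and 5789 higher. All 3 receptor constant genes over 10 CPM were at least 2-fold below both untreated libraries, with a median share of 13.7%. The beta constant genes led them: Trbc2 had 74.2 CPM in T cell HOCl, against 499.8 and 859 CPM in untreated T cells, and Trbc1 had 48.7 CPM, against 242 and 378 CPM. All 12 coreceptor, costimulation and adhesion genes over 10 CPM were as well, with a median share of 17.97%. The integrin chain gene Itgal, of LFA-1, had 62.6 CPM in T cell HOCl, against 375 and 145 CPM in untreated T cells, and the adhesion receptor gene Cd2 had 31.1 CPM, against 165 and 220.0 CPM. Of kinases and phosphatases, 8 of 10 were below, with a median of 22.0%. Among them Ptprc, the CD45 phosphatase that keeps LCK active, had 159 CPM in T cell HOCl, against 2684 and 1295 CPM in untreated T cells. Ptprc stood at 7.97% of the untreated mean, beside Cd247 at 6.89%.

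Of adaptors and exchange factors, 16 of 21 were at least 2-fold below both untreated libraries (median share 23.7%). The exchange factor gene Arhgef1 had 314 CPM in T cell HOCl, against 2256 and 968 CPM in untreated T cells, and Grap2, the GADS adaptor that links LAT to SLP-76, had 72.4 CPM, against 1194 and 805 CPM. In the phospholipase, lipid and calcium arm it was 12 of 15 (26.2%). There the diacylglycerol kinase gene Dgka had 123 CPM in T cell HOCl, against 1382 and 821 CPM in untreated T cells, and Pik3cd, a phosphoinositide 3-kinase subunit gene, had 131 CPM, against 1151 and 632 CPM. Of negative regulators it was 7 of 9 (23.4%). The ubiquitin ligase genes Cblb and Cbl had 41.4 and 60.9 CPM in T cell HOCl, against 333 and 451 CPM for Cblb and 486.5 and 185 CPM for Cbl in untreated T cells. Among genes over 10 CPM in both untreated libraries, none in these 6 lists was at least 2-fold above both. Some genes under that floor were. Ptprj had 60.9 CPM in T cell HOCl, against 7.59 and 5.47 CPM in untreated T cells, and Plcg2 had 22.1 CPM, against 6.73 and 5.57 CPM. In untreated B16F10, Ptprj had 67.0, 84.3 and 84.5 CPM and Plcg2 had 21.5, 20.4 and 22.6 CPM. Others under the floor were lower, such as Trdc, at 1.95 CPM in T cell HOCl against 7.45 and 7.35 CPM. Of the listed genes over 10 CPM in both untreated libraries, Tespa1, Itpr1, Ptpn6 and Ubash3b had the highest shares. They stood at 189%, 177%, 144% and 140% of the untreated mean, and were named after their values were seen. In untreated B16F10, Itpr1 had 186, 223 and 227 CPM, Ptpn6 27.7, 25.4 and 28.2 CPM and Ubash3b 52.1, 50.8 and 54.7 CPM. Tespa1 had 0.212, 0.252 and 0.0872 CPM there. The part of B16F10 RNA in the T cell HOCl values of these genes was not tested. The members' own median share was 19.0%, and that of all 7751 genes 59.0%.

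**Figure D5:**
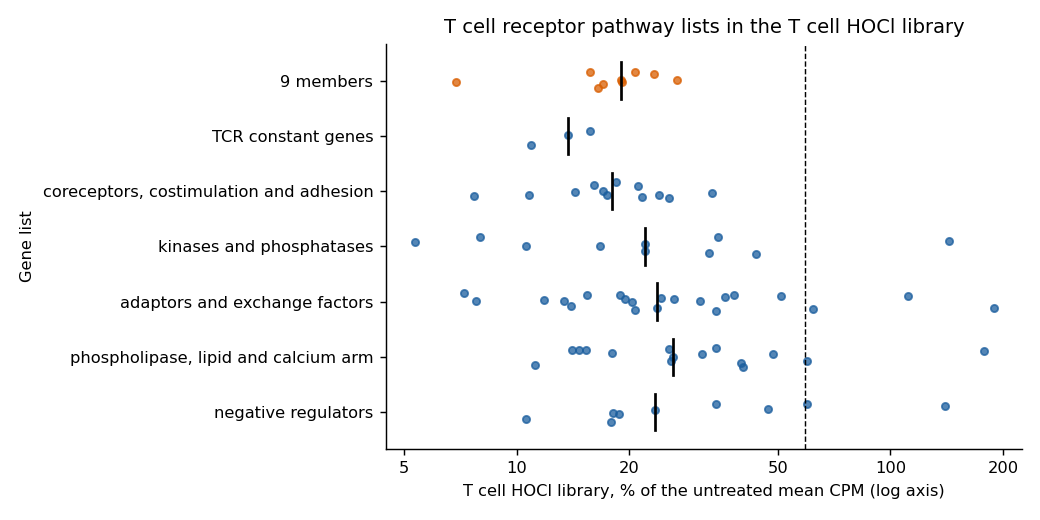
The CPM of each gene in the T cell HOCl library as a percent of its untreated T cell mean (log axis), by list, for genes with at least 10 CPM in both untreated libraries; each point is a gene, black bars are list medians and the dashed line is the median of 59.0% over all 7751 such genes. Medians run from 13.7% for the receptor constant genes to 26.2% for the phospholipase, lipid and calcium arm.

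Counts of listed genes called between the cell types stand beside a background of 71.1% called over all genes tested, 35.4% higher and 35.8% lower. In untreated T cells against untreated B16F10, edgeR called all 7 tested receptor constant genes and all 13 tested coreceptor, costimulation and adhesion genes higher. It called 9 of 12 kinases and phosphatases higher and 1 lower, 20 of 22 adaptors and exchange factors higher and 1 lower, and 12 of 16 genes of the phospholipase arm higher and 2 lower. Of negative regulators it called 8 of 11 higher and 2 lower. List medians of the log2 difference ran from 1.6 for kinases and phosphatases to 11.22 for receptor constant genes, against 0.02 over all genes tested. The calls of Nck2 and Ppp3cb ended when 1 untreated B16F10 library was left out. In B16F10, HOCl against untreated, it called 0 of 1 receptor constant gene and 0 of 5 coreceptor genes, against backgrounds of 14.7% higher and 13.5% lower. Of 11 kinases and phosphatases, 2 rose and 3 fell with HOCl. The kinase gene Fyn had 98.0, 93.4 and 101 CPM in B16F10 HOCl, against 73.8, 80.4 and 80.5 CPM in B16F10 untreated (log2 difference 0.29, edgeR adjusted p = 0.00203). The phosphatase gene Ptpn6 had 18.5, 19.3 and 18.2 CPM in B16F10 HOCl, against 27.7, 25.4 and 28.2 CPM in B16F10 untreated (log2 difference -0.56, edgeR adjusted p = 0.000131). The HOCl and untreated libraries did not overlap in either gene. Of the 16082 genes tested, 25.2% had every HOCl library above every untreated one, as Fyn did. The share with every HOCl library below, as for Ptpn6, was not computed. Fyn and Ptpn6 were chosen after their values were seen.

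Of 15 adaptors and exchange factors tested in B16F10, 3 rose and 1 fell. Of 16 genes of the phospholipase arm, 2 rose and 3 fell, and of 8 negative regulators 3 rose and 0 fell. Without HOCl replicate 3 the calls were 1 higher and 0 lower for adaptors, of which 16 were then tested. For the phospholipase arm they were 2 and 2, and for negative regulators 1 and 0. Kinases and phosphatases kept 2 higher and 3 lower. Calls over all genes also fell, from 2366 higher and 2178 lower to 1605 and 1410. They were 1705 and 1466 without HOCl replicate 1, and 1693 and 1432 without HOCl replicate 2. Among the lists with 5 or more genes tested, medians of the log2 difference on all 6 libraries ran from -0.0010 for the phospholipase arm to 0.43 for adaptors, against -0.0077 over all genes tested. When some 1 of the 6 libraries was left out, the calls of Csk, Unc119, Sos1, Dgkz, Rc3h1, Cblb and Themis ended. The call that ended only without HOCl replicate 3 and had the largest change was that of Themis, a T cell adaptor gene named after its values were seen. It had 0.612, 0.57 and 1.597 CPM in B16F10 HOCl, against 0.179, 0.378 and 0.196 CPM in B16F10 untreated.

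The 10 genes whose profile over the 9 libraries was nearest to the median profile of the 9 genes were Coro1a, Ms4a4b, Laptm5, Rac2, Txk, Lcp2, Il21r, Trac, Trbc1 and Skap1. Likeness was the root mean square difference in log2(CPM + 0.1), each profile taken relative to its own untreated T cell mean. It was 0.20 for Coro1a and 0.37 for Skap1, the first and last of the 10. The 9 genes themselves ranged on this measure from 0.16 for Cd3e to 2.08 for Lck, with Cd247 at 0.60. For Lck, 296 genes other than the 9 were nearer to the median profile, and Lck was the member with the highest level in B16F10.

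Marker lists of other cell types were measured in the T cell libraries because their RNA would sit in the same totals. The 8 melanocyte markers summed to 6861 CPM in T cell HOCl, against 103 and 25.9 CPM in untreated T cells, with Tyrp1 highest in T cell HOCl at 2506 CPM and Pmel in untreated T cells at 40.5 and 9.23 CPM. The 8 B cell markers summed to 427 CPM in T cell HOCl, against 1271 and 2370 CPM in untreated T cells. Most of this was the immunoglobulin gene Ighm, at 280 CPM in T cell HOCl against 1242 and 2332 CPM in untreated T cells. Myeloid markers (9 genes) summed to 127 CPM in T cell HOCl, against 26.8 and 17.7 CPM in untreated T cells, led by S100a9 at 34.2 CPM in T cell HOCl, while Mpo had the highest mean of untreated T cells, with 6.49 and 5.74 CPM. The 7 NK markers summed to 46.5 CPM, against 45.8 and 36.3 CPM, led by Eomes. The 6 dendritic markers summed to 78.1 CPM, against 13.4 and 9.77 CPM, with Zbtb46 highest in T cell HOCl and in the untreated mean, and the 7 erythroid markers to 37.2 CPM, against 2.56 and 12.2 CPM, with Klf1 highest in T cell HOCl and Hbb-bs in the untreated mean. The 5 CD4 T cell markers summed to 36.6 CPM, against 22.1 and 13.6 CPM (led by Zbtb7b in the HOCl library and Tnfrsf4 in untreated T cells), the 4 platelet markers to 7.86 CPM, against 18.8 and 6.53 CPM (led by Itga2b), and the 6 fibroblast and endothelial markers to 125 CPM, against 160 and 137 CPM. Of this last sum, Pecam1 made 59.6 CPM in T cell HOCl, against 159 and 136 CPM in untreated T cells, while the other 5 markers had 9.11 to 16.6 CPM in T cell HOCl, against at most 0.541 CPM in untreated T cells. Siglech, a dendritic marker, had no count in untreated replicate 1, and no listed marker was at 0 in both untreated T cell libraries. In T cell HOCl, genes under 0.1 CPM in every other library also had counts, at a median of 0.556 CPM per kilobase of exon. How much of the marker values there has the same source was not tested. The part of other cells' RNA in the members' values was not tested either.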

How the data were processed

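RNA levels were measured in 9 mouse libraries, grouped by their titles. The authors deposited raw counts of reads per gene, not normalised. Aligner STAR 2.7.1a, counter featureCounts 1.6.0, FastQC 0.11.8, the test DESeq2 1.22.2 and build mm10 are named in the submitters' processing notes. The sources used here give no annotation release, strand setting or rule for multiply mapped reads. The authors also deposited a table per cell type with log2 fold changes and adjusted p-values, whose groups are not named by treatment.

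The 9 genes and all lists were chosen with earlier results of these data known. GENCODE M21 held 54809 of the 54838 gene IDs. CPM used library totals. Tests were edgeR 4.0.16 in R 4.3.3 (quasi-likelihood F test, robust, filterByExpr, TMM, Benjamini-Hochberg over all genes tested, threshold 0.05) with only the 2 groups compared. The single T cell HOCl library was described without a test. Intervals are 95%, exact Poisson or conditional binomial, and cover counting error only. edgeR's steps were tested on simulated data. Alternatives were DESeq2 1.42.0 and its size factors, no filter, a replicate block, 3 groups in 1 fit, other denominators, a 1 CPM floor and leaving out each library. The text names all 9 genes, the 2 most abundant of each pathway list in untreated T cells, the 10 nearest profiles and the leading marker of each cell type list, apart from some items that are not reported here.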

Additional observations from a re-analysis of the deposited data

Results flagged for a closer look

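On library totals, Lck and Zap70 lay on opposite sides of the untreated libraries in the 2 cell types. Every B16F10 HOCl library lay above every untreated B16F10 library in both genes. The same held for 25.2% of the 16082 genes that edgeR tested, and Zap70 was not among those tested. The log2 ratios of mean CPM in B16F10 were 0.63 for Lck and 3.00 for Zap70. The T cell HOCl library lay below both untreated T cell libraries, at log2 ratios of -1.90 for Lck and -2.39 for Zap70. With the T-only total as denominator, the T cell ratios turned to 0.83 for Lck and 0.32 for Zap70. The B16F10 ratios are on library totals and were not computed on that scale, so the directions are not compared there. The difference between the cell types was not tested, since T cell HOCl is 1 library. Without B16F10 HOCl replicate 3, whose T-only median was 0.727% of untreated T cells (the 5 remaining B16F10 libraries had 0.0651% to 0.101%), the fitted Lck difference was 0.21 (edgeR adjusted p = 0.397). The Zap70 ratio in B16F10 rests on 108 counts over the 3 HOCl libraries, 82 of them in replicate 3, and 13 counts over the 3 untreated ones.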

How the results depend on the processing

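The T cell untreated against B16F10 untreated calls on all 9 genes kept their direction and side of the threshold under every alternative, with 6490 genes higher and 6561 lower, and 5588 to 7589 higher and 5344 to 7837 lower with 1 library left out. Within B16F10, HOCl against untreated, 2366 genes were higher and 2178 lower. With the untreated T cells in the same fit these were 29 and 38, and with 1 library left out 1605 to 2819 and 1410 to 2634. Leaving out 1 library put Cd8a at -0.15 to 2.65 and Lat at -0.26 to 1.67, the negative values without HOCl replicate 3, whose cause was not tested. The calls of these genes under other settings were Cd8b1 and Lck under DESeq2, Lck, Zap70, Cd3e and Cd247 with no filter (adjusted p = 0.000432, 7.13e-07, 0.00315 and 0.0195), Cd8a, Cd8b1, Lck and Cd3g without HOCl replicate 2 (0.036, 0.0165, 0.0397 and 0.0161), Zap70 without HOCl replicate 1 (0.00707) and without untreated replicate 3 (0.0372), and Cd8b1 and Lck with the replicate block (0.0306 and 0.0227), all by edgeR except the first. Same-numbered B16F10 libraries deviated with correlations of 0.0352, -0.00347 and 0.00148, so the numbers pair nothing in the data, and the block gave 2726 genes higher and 2567 lower in B16F10 and 4763 and 5320 between cell types.

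For T cell HOCl beside untreated, 2362 genes were at least 2-fold lower and 261 higher. Without mitochondrial genes in the total these were 1057 and 794, and the members' median log2 ratio was -1.74. With the T-only total they were 22 and 5789, 0 of the 9 genes were lower, and the median was 0.32. There Cd3d stood at 0.10, Cd3e at 0.35, Cd3g at 0.61, Cd8a at 0.18, Cd8b1 at 0.059, Lck at 0.83, Zap70 at 0.32 and Lat at 0.45, and Cd247 at -1.15, which was not 2-fold below both untreated libraries. With TMM they were 5172 and 67, with a median of -3.39. A floor of 1 CPM gave 1695 higher. With 1 untreated library left out, 2857 to 3375 were lower and 369 to 550 higher. Between the untreated T cell libraries 1049 genes were at least 1.5-fold higher and 2025 lower in replicate 2. TMM gave 1823 and 1233, with Cd8b1 at 0.016 and Lat at 0.050, and the 1 CPM floor 1816 and 3471. In B16F10, 8 of the 9 genes had under 100 counts over the 3 untreated libraries, which limits the precision of their ratios.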
